A study of Mus musculus with 6 samples.

Results

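The 10 genes described here are expressed by the endothelial cells that line the blood vessels of the brain: *Cldn5*, *Flt1*, *Pecam1*, *Ly6c1*, *Slco1a4*, *Abcb1a*, *Slc2a1*, *Kdr*, *Cdh5* and *Tek*. They were chosen by name, as the rows of the deposited table whose Ensembl identifiers carry these symbols in GENCODE release M21, and all 10 were found among the 18254 genes of the table. The study sequenced RNA of the medial prefrontal cortex (mPFC) of male mice aged 10 to 12 weeks on a C57BL/6J background, comparing EGFP-*Shank3* transgenic (TG) mice, which overexpress a scaffold protein of the excitatory synapse, with their wild-type (WT) littermates. Each genotype had 3 libraries, numbered 1 to 3 (TG-1 is the TG library numbered 1), and the study's methods state that tissue of 2 mice was pooled for every library, so that the spread between libraries is a spread between pools. The mice differed in the transgene alone as far as the labels say. The values are read counts that the authors estimated per gene and divided by a size factor per library (normalized counts). They summed to between 28363967 and 29447717 per library, and all 10 genes passed the filter of a mean of at least 5 normalized counts that left 16714 genes for the tests. *Shank3* itself had 16310 to 19003 normalized counts in the TG libraries and 6791 to 8374 in the WT libraries, which fits the genotype labels.

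Endothelial cells of the brain differ from those of most organs in that they form the blood-brain barrier. Tight junctions seal the cleft between neighbouring cells, transporters in the membrane carry glucose and other nutrients inwards and pump many drugs back into the blood, and vesicular traffic across the cell is kept low. Vessel growth and survival are governed by the vascular endothelial growth factor (VEGF) receptors and by the angiopoietin receptor Tie2, while Wnt ligands from neural cells maintain the barrier programme. In RNA from whole tissue, fewer endothelial cells and less RNA per endothelial cell cannot be told apart.

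None of the 10 endothelial genes differed between *Shank3* TG and WT mPFC by more than the spread between libraries. At an adjusted p-value of 0.05 in limma's moderated test, 0 of the 10 passed, and so did 0 of the 16714 tested genes (0%), *Shank3* included (log2 fold change 1.18, adjusted p = 0.0643, and 0.000437 once the replicate number was fitted as a block). The study, which used DESeq2 and an empirical null, reported changed genes from these libraries at that threshold. Such a null takes the spread of the test statistics from the data. With an empirical null on limma's test, 26 of the 16714 genes passed and 0 of the 10. By unadjusted p-values in the main fit, 336 of the 16714 were under 0.05. An unadjusted p-value under 0.05 was reached by 0 of the 10, against 2.01% of all tested genes, and the TG and WT libraries overlapped in all 10, whereas they did not overlap in 6.02% of all tested genes. The log2 fold changes of TG over WT lay between -0.11 for *Ly6c1* and 0.21 for *Kdr*, with 6 above and 4 below 0 and a median of 0.02, beside a median of -0.0037 over all tested genes. For 9 of the 10 genes, the exception being *Pecam1*, the 95% interval of the change lay within 1.5-fold in either direction. The upper bound of *Kdr*, at 1.496-fold, was only just within that limit. The adjusted p-value was 1.00 for each of the 10 genes in limma's test. *Pecam1* stood apart because its level was about 3-fold higher in both libraries numbered 3, whatever the genotype, while the other 9 genes were at 0.738 to 1.03 times their level in the other libraries of the same genotype.

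**Figure D1:**
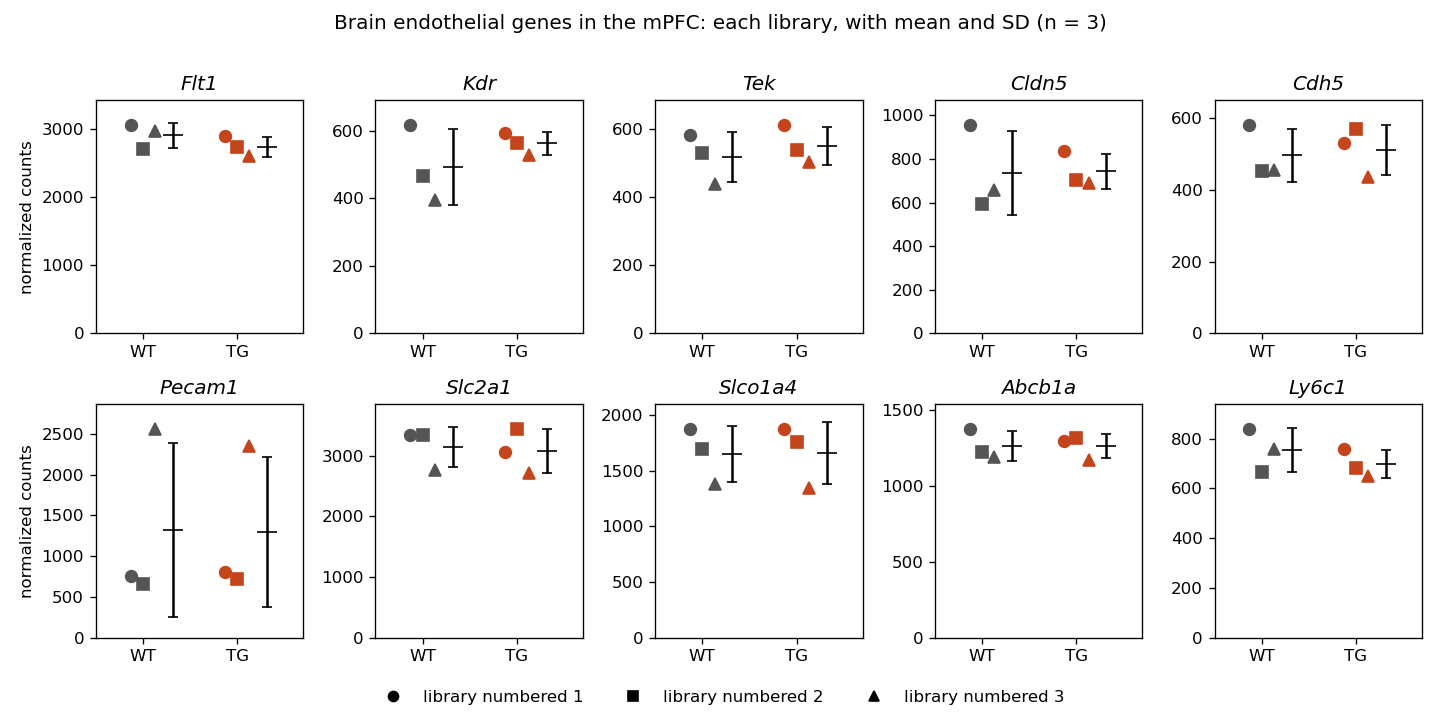
Normalized counts (vertical axis, from 0) of each of the 10 endothelial genes in the 3 WT and 3 TG libraries, with the library number given by the symbol and the mean and SD (n = 3) beside the points. The genotypes overlap in every panel, and in the panel of *Pecam1* the libraries WT-3 and TG-3 lie at 2559.8 and 2359 normalized counts, far above the other 4.

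The receptors of VEGF come first. *Flt1* encodes VEGF receptor 1, which binds VEGF tightly and acts largely as a decoy, and *Kdr* encodes VEGF receptor 2, the main signalling receptor of endothelial cells. Both lie on the minus strand of chromosome 5 and have 30 annotated exons each, *Flt1* (ENSMUSG00000029648) from 147561604 to 147726011 and *Kdr* (ENSMUSG00000062960) from 75932827 to 75978458 in GRCm38. The 250 bases in front of their RefSeq transcription starts (GRCm38.p6, given 5′ to 3′ on the minus strand) are shown because the ratio of the 2 receptors is described next. Capitals mark matches, on either strand, to AGGAAG or CGGAAG, which are versions of the core sequence that ETS transcription factors bind. These factors are known regulators of endothelial genes.

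Flt1 (chr5:147726012-147726261): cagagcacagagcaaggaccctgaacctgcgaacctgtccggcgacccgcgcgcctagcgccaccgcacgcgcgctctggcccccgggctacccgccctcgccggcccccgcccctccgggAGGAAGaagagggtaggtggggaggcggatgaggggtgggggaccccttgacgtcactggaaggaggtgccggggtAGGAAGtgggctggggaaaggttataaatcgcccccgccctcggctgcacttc

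Kdr (chr5:75978456-75978705): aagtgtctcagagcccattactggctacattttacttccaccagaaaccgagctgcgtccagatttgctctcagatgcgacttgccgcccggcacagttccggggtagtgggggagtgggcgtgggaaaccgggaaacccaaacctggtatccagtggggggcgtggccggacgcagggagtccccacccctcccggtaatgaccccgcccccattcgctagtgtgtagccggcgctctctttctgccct

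The *Flt1* stretch holds 2 such matches, which begin 129 and 53 bases before the start, and a TATAAA close to the start, whereas the *Kdr* stretch holds neither. Both stretches contain the GC box GGGCGG on one of the strands, 3 times in *Flt1* and 2 times in *Kdr*, and 70.4% and 61.6% of their bases are G or C. Upstream stretches were at hand for 8 of the 10 genes (9 windows, since *Ly6c1* has 2). The window of *Abcb1a* (chr5:8566841-8567090) does not adjoin the gene as GENCODE places it, from 8660077 on. The ETS letters were found for 4 of these 8 genes, the GC box for 4, TATAAA for 2 and ACAAAG or ACAATG, versions of the core that SOX factors bind, for 4. A gene was counted if any of its windows matched, so *Ly6c1* had 2 chances. Among all 32851 RefSeq windows of the same length the shares, counted per window and not per gene, were 39.2%, 32.7%, 12.4% and 25.2%. A match of this length describes the letters and does not show binding.

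*Flt1* had 2887, 2729.9 and 2596 normalized counts in TG-1, TG-2 and TG-3 and 3054, 2702 and 2959 in WT-1, WT-2 and WT-3. The groups overlapped, the spread was small (SD 5.33% of the mean in TG and 6.27% in WT), and the log2 fold change was -0.08 (standard error 0.08, 95% interval -0.27 to 0.10, unadjusted p = 0.317 in limma's test). *Kdr* had 595, 565 and 529 normalized counts in TG and 618, 468 and 396 in WT. The TG libraries were close together and 2 of the 3 WT libraries lay below all of them, with WT-1 above. *Kdr* had the largest change of the 10 genes, a log2 fold change of 0.21 (standard error 0.16, 95% interval -0.16 to 0.58), with unadjusted p = 0.223 and adjusted p = 1.00 in limma's test. With the replicate number as a block, that p-value was 0.0693 and the adjusted one 0.996. Its size depended on the WT libraries left in the fit: it was 0.38 without WT-1 and 0.07 without WT-3.

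The normalized counts of *Kdr* were also divided by those of *Flt1* in the same library, a ratio chosen after the values had been seen. It was 0.206, 0.207 and 0.204 in TG-1, TG-2 and TG-3 and 0.202, 0.173 and 0.134 in WT-1, WT-2 and WT-3. The TG ratios were nearly equal and all above the WT ratios, although WT-1 was only just below them. The means were 0.206 ± 0.00161 (SD, n = 3) in TG and 0.17 ± 0.0343 in WT, and since the ratio was chosen for these values no test of it is given. Of the 45 ratios between any 2 of the 10 genes, 2 separated the genotypes (4.44%), the other being *Ly6c1* over *Kdr*. How often ratios of other genes separate 3 from 3 libraries was not computed, so nothing about *Kdr* is read from this count.

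*Tek* encodes Tie2, the receptor of the angiopoietins, which keeps vessels quiescent (ENSMUSG00000006386, chromosome 4 from 94739289 to 94874976, plus strand). It had 611, 538 and 502 normalized counts in TG and 582, 529.9 and 439 in WT. In both genotypes the order was the same, with library 1 highest and library 3 lowest, and *Tek* was the 1 gene of the 10 that was higher in TG at each of the 3 replicate numbers. The log2 fold change was 0.09 (standard error 0.13, 95% interval -0.21 to 0.40, unadjusted p = 0.492 in limma's test), and 0.26 was the unadjusted p-value with the replicate number as a block. These receptors act together with ligands made by other cells. Of a list of 9 ligands and further receptors of the VEGF and angiopoietin pathways, 0 had an unadjusted p-value under 0.05, and the median log2 fold change was -0.03. *Vegfa*, the main ligand of *Kdr*, had 2262 ± 89.8 normalized counts (SD, n = 3) in TG and 2313 ± 65.8 in WT. *Vegfb*, a ligand of *Flt1*, had 2107 normalized counts in TG-3 and 2168 in WT-3, against 1353 to 1566 in the other libraries, so that the libraries numbered 3 stood above the others in both genotypes.

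The junctions between endothelial cells are represented by *Cldn5*, *Cdh5* and *Pecam1*. *Cldn5* encodes claudin-5, the main claudin of the tight junctions of the barrier. It is a gene with 1 exon (ENSMUSG00000041378, chromosome 16 from 18776847 to 18778262, plus strand). Its normalized counts were 835, 706 and 691 in TG and 956, 592 and 660 in WT (659.8 for WT-3). Both extremes were WT libraries, and the WT spread (SD 194) was larger than that of TG (79.5). Accordingly, the log2 fold change of 0.04 had a wide 95% interval, -0.37 to 0.46 (unadjusted p = 0.823 in limma's test). *Cdh5* encodes VE-cadherin, the adhesion protein of the adherens junctions of endothelium (ENSMUSG00000031871, chromosome 8 from 104101625 to 104144511, plus strand). With 530, 568 and 435 normalized counts in TG and 581, 451 and 456 in WT, it also overlapped between the genotypes, and its log2 fold change was 0.04 (95% interval -0.29 to 0.38).

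A list of 8 further tight junction genes had 0 with an unadjusted p-value under 0.05, 4 higher and 4 lower in TG, and a median log2 fold change of -0.03. *Tjp1*, which encodes the junction scaffold ZO-1, had 3115 ± 333 normalized counts (SD, n = 3) in TG and 3242 ± 236 in WT. *Jam2*, a junctional adhesion molecule, had 1335 ± 77.3 and 1332 ± 49.5. Neither gene is restricted to endothelium, so both levels include other cells.

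*Pecam1* encodes CD31, an adhesion protein at endothelial borders (ENSMUSG00000020717, chromosome 11 from 106654217 to 106750628, minus strand, with 6 coding transcripts in GENCODE release M21). Its normalized counts were 811, 722 and 2359 in TG-1, TG-2 and TG-3 and 755, 657 and 2559.8 in WT-1, WT-2 and WT-3. Library 3 was thus far above the other libraries in both genotypes, 3.08-fold in TG and 3.63-fold in WT, relative to the mean of libraries 1 and 2 on the log2 scale. Of all tested genes 1.10% had a library numbered 3 at least 2-fold above both others in both genotypes. *Pecam1* was the 1 such gene among the 10, and among 20 other endothelial genes there were 0. Since the replicate number and not the genotype separated the values, the log2 fold change of *Pecam1* was 0.04 with a standard error of 0.60 and a 95% interval from -1.35 to 1.43. Under the block the interval narrowed to -0.13 to 0.21, and without the libraries numbered 3 the log2 fold change was 0.12 (95% interval -0.14 to 0.38, unadjusted p = 0.326 in limma's test).

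Platelets, microglia and some leukocytes also carry CD31, and their genes are given as they stood in the libraries numbered 3, relative to the other libraries of the same genotype. The 9 red cell and platelet genes were at 0.772 to 1.65 times their level in TG and at 0.925 to 3.72 times in WT. The highest in WT was *Ppbp*, a platelet chemokine, with 6.67, 1.80 and 3.26 normalized counts in TG and 1.96, 0.966 and 7.97 in WT, below the filter of the tests. In TG it was at 0.919 times. These multiples were taken after adding 1 to each count, which understates them at counts as low as those of *Ppbp*. *Pf4*, another platelet chemokine, was at 0.772 times in TG and 1.82 times in WT, and *Itga2b*, a platelet integrin, at 1.27 and 1.11 times. Microglia genes, 6 in all, were at 0.754 to 0.955 times their level in TG and at 0.743 to 1.08 times in WT. The cause of the higher level of *Pecam1* was not tested. The pattern also sets how a sum over the 10 genes reads. The sum was 12994 to 13269 normalized counts in TG and 12335 to 13969 in WT, and without *Pecam1* it was 12458, 12305 and 10635 in TG-1, TG-2 and TG-3 and 13214, 11678 and 11014 in WT-1, WT-2 and WT-3.

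**Figure D2:**
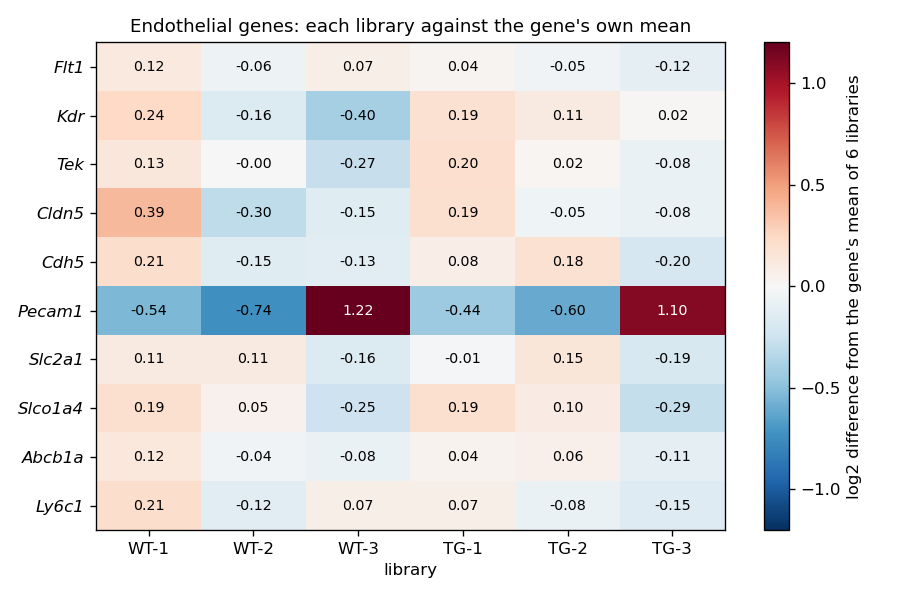
Log2 difference of each library (columns) from the mean over the 6 libraries of the same gene (rows), for log2(normalized count + 1). WT-1 is above the mean for 9 of the 9 genes other than *Pecam1*, TG-3 is below it for 8 of the 9, and *Pecam1* reaches 1.22 in WT-3 and 1.10 in TG-3.

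The transporters of the barrier are represented by *Slc2a1*, *Slco1a4* and *Abcb1a*. *Slc2a1* encodes GLUT1, which carries glucose across the endothelium and is also found in astrocytes (ENSMUSG00000028645, chromosome 4 from 119108711 to 119137983, plus strand). It had 3069.7, 3439 and 2716 normalized counts in TG and 3336, 3349.5 and 2769 in WT. Library 3 was the lowest in both genotypes and the values of TG and WT interleaved, with a log2 fold change of -0.04 (standard error 0.11, 95% interval -0.30 to 0.23). *Slco1a4*, which encodes the organic anion transporter OATP1A4 (ENSMUSG00000030237, chromosome 6 from 141805440 to 141856199, minus strand), had 1874, 1759 and 1346 normalized counts in TG and 1875, 1696 and 1384 in WT. The libraries with the same number were almost level, and those numbered 3 were at 0.742 and 0.776 times the others in TG and WT. Its log2 fold change was 0.0035 (95% interval -0.35 to 0.36). With the replicate number as a block, that interval was -0.13 to 0.14.

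*Abcb1a* encodes P-glycoprotein, the efflux pump that returns many drugs to the blood (ENSMUSG00000040584, chromosome 5 from 8660077 to 8748575, plus strand). It had 1297, 1318 and 1171 normalized counts in TG and 1374, 1225 and 1191 in WT, and its mean was 1262 ± 79.5 (SD, n = 3) in TG and 1263 ± 97.7 in WT. The log2 fold change was -0.00088 (standard error 0.09), with a 95% interval from -0.21 to 0.21, or 0.865-fold to 1.15-fold. Its paralogue *Abcb1b* had 101 ± 8.25 normalized counts in TG and 108 ± 2.94 in WT. *Ly6c1* encodes a small surface antigen that is abundant on brain capillaries and also marks some leukocytes (ENSMUSG00000079018, chromosome 15 from 75044018 to 75048830, minus strand). It had 759, 683 and 649.8 normalized counts in TG and 838, 664 and 760.2 in WT. WT-2 lay between TG-2 and TG-3, and the log2 fold change was -0.11 (95% interval -0.37 to 0.15). *Ly6c1* has a close paralogue, *Ly6c2*, to which the authors assigned 47.7 ± 9.33 and 47.1 ± 10.3 normalized counts, so that the division of reads between the pair is uncertain.

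Of 13 further transporters of brain capillaries, 1 had an unadjusted p-value under 0.05 (2.01% of all tested genes), *Slc22a8*, and the median log2 fold change was -0.01. *Tfrc*, the transferrin receptor, had 4078 ± 308 normalized counts (SD, n = 3) in TG and 4140.2 ± 343 in WT, and *Slc3a2*, the heavy chain of the amino acid exchanger, had 3274 ± 164 and 3359 ± 4.48. *Slc22a8*, which encodes the organic anion transporter OAT3, had 797, 798 and 895 normalized counts in TG and 698, 610 and 745 in WT (610.4 for WT-2). Each TG library was above each WT library, with a log2 fold change of 0.28 (standard error 0.10, unadjusted p = 0.027 and adjusted p = 1.00 in limma's test). Leaving out TG-3 gave *Slc22a8* an unadjusted p-value of 0.0889, and leaving out WT-2 gave 0.0899. A gene lay higher in TG without overlap in 2.91% and lower without overlap in 3.12% of all tested genes.

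**Figure D3:**
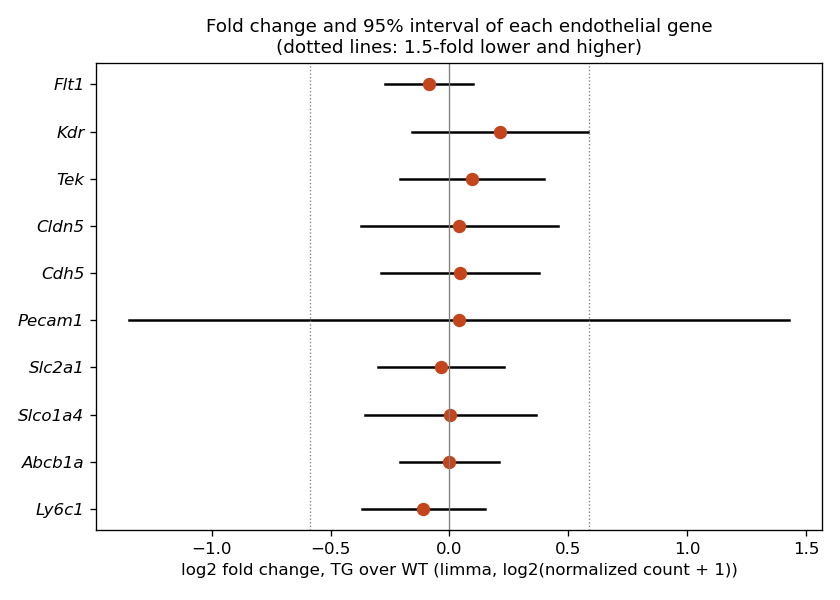
Log2 fold change of TG over WT (horizontal axis) with its 95% interval from limma for each endothelial gene, dotted lines marking 1.5-fold. The points lie between -0.11 and 0.21, each interval includes 0, and the interval of *Pecam1*, from -1.35 to 1.43, is the one that passes the dotted lines.

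Levels were compared between genes per kilobase of the longest coding transcript, over the 6 libraries. *Slc2a1* was the highest, with a mean of 955 normalized counts per kilobase, followed by *Ly6c1* (859.7) and *Cldn5* (523). Then came *Slco1a4* (433), *Flt1* (409), *Pecam1* (381) and *Abcb1a* (253), and the lowest were *Cdh5* (126), *Tek* (115) and *Kdr* (89.2), 10.7-fold below *Slc2a1*. The place of *Pecam1* rests on the libraries numbered 3. It had 685 and 744 normalized counts per kilobase in TG-3 and WT-3, against 191 to 236 in the other 4 libraries, so that it was above *Abcb1a* in 2 of 6 libraries. The ranges over libraries did not overlap between *Ly6c1* and *Cldn5*, nor between *Abcb1a* and *Cdh5*, and each other pair of neighbours in this order overlapped. The transporters and *Ly6c1*, *Cldn5* and *Flt1* were therefore above *Cdh5*, *Tek* and *Kdr* in each library, on this per-kilobase scale.

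The 9 genes other than *Pecam1* tended to be high or low in the same libraries. WT-1 was above a gene's own mean for 9 of the 9 (median log2 difference 0.19), and TG-1 for 8. WT-2 and WT-3 were below it for 7 each, with medians of -0.06 and -0.15, and TG-3 for 8, with a median of -0.12. Across all 10 genes, 5 were at their lowest in the library numbered 3 in both genotypes, namely *Slco1a4*, *Abcb1a*, *Slc2a1*, *Kdr* and *Tek*, against 25.3% of all tested genes. As a result the direction of the difference between genotypes followed the pair that was compared. At number 1, 8 of the 10 genes were lower in TG than in WT, at number 2 all 10 were higher, and at number 3 there were 7 lower and 3 higher. The shares over all tested genes at each number were not computed, so a shift of a whole library cannot be told from one of these genes. Fitting the replicate number as a block left the count of endothelial genes with an unadjusted p-value under 0.05 at 0, against 4.98% of all tested genes, with p-values from 0.0693 to 0.99 in limma's test.

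Markers of other cell types also differed between libraries, in more than one direction. The summed normalized counts of 6 astrocyte genes were highest in WT-1 (49400.0) and lowest in TG-3 (41112), and those of 6 microglia genes were highest in WT-1 (10509) and lowest in TG-3 (7817). The 15 genes of pericytes and smooth muscle, which wrap the vessels, summed to 8328 in TG-3 and 10332 in WT-1. The sum of 6 neuron genes was lowest in WT-1 (188029) and highest in TG-3 (224586). Its members differed among themselves, *Rbfox3* being 1.74-fold and 1.89-fold higher in the libraries numbered 3 of TG and WT and *Gad1* at 0.896 and 0.879 times its level in the others. Between genotypes, these mural genes had a median log2 fold change of -0.02, with 0 of 15 under an unadjusted p-value of 0.05 (2.01% of all tested genes). The count was 2 without TG-3 (beside 353 of 16698 tested genes) and 1 without WT-3 (417 of 16682). *Rgs5*, a marker of pericytes, had 3259 ± 342 normalized counts (SD, n = 3) in TG and 3326 ± 354 in WT. *Csf1r*, a receptor of microglia, *Aldoc*, an aldolase of astrocytes, and *Snap25*, a synaptic protein of neurons, had log2 fold changes of -0.0027, -0.03 and -0.00046. Of 5 choroid plexus genes, 1 had an unadjusted p-value under 0.05, *Ttr*, which encodes transthyretin (2.01% of all tested genes had one), with 127, 22.9 and 445 normalized counts in TG and 14.3, 12.6 and 41.7 in WT. TG-2 overlapped WT-3, the log2 fold change of *Ttr* was 2.42 (unadjusted p = 0.0382 and adjusted p = 1.00 in limma's test), and the median of the 5 genes was 0.50. The study also lists *Ttr* among its changed genes from these libraries, so its direction is not independent. The number of choroid plexus genes under 0.05 was 0 without TG-1, TG-3, WT-1 or WT-2 and with the robust option. The part that the makeup of the dissected tissue has in the shifts was not tested.

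A list of 20 other endothelial genes was examined in the same way. Of these, 0 had an unadjusted p-value under 0.05, 10 were higher and 10 lower in TG, and the median log2 fold change was 0.0024, with a range from -0.20 to 0.31. *Cd34*, a sialomucin of endothelial and some other cells, had 3113 ± 297 normalized counts (SD, n = 3) in TG and 3162 ± 136 in WT, and *Ptprb*, the vascular endothelial phosphatase that acts on Tie2, had 1866 ± 57.3 and 1878 ± 141. In 1 of the 20 the groups did not overlap, a share close to the 6.02% of all tested genes. This was *Robo4*, a receptor of the vessel wall, named here after its values had been seen, with 238, 253 and 229 normalized counts in TG and 269, 264 and 294 in WT (log2 fold change -0.20, standard error 0.11, unadjusted p = 0.0963 in limma's test).

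The Wnt pathway of the barrier was represented by 15 genes, of which 0 had an unadjusted p-value under 0.05, and the median log2 fold change was -0.0047. Without WT-1 that count was 2, beside 379 of the 16732 tested genes. *Ctnnb1*, which encodes β-catenin and is used by most cells, had 10399 ± 792 normalized counts (SD, n = 3) in TG and 9905 ± 791 in WT, and the co-receptor *Lrp6* had 1707 ± 72.7 and 1796 ± 109. Of 10 arterial genes, 0 passed without the block and 1 with it (4.98% of all tested genes). The count was 1 without TG-2 (beside 353 of 16693 tested genes) and 1 without WT-3 (417 of 16682). The median of the 10 arterial genes was 0.06. The ephrin *Efnb2* and the Notch target *Hey1*, the most abundant of them, had log2 fold changes of 0.09 and 0.05 with unadjusted p-values of 0.32 and 0.632 in limma's test. Of 6 genes of caveolae and fenestrae, 1 was lower in TG at an unadjusted p-value under 0.05, and with the block there was also 1 that was higher, against 2.01% and 4.98% of all tested genes. The first was *Cav2*, which encodes caveolin-2, with 946, 822 and 721 normalized counts in TG and 1131, 1227 and 922 in WT. TG-1 overlapped WT-3, and the log2 fold change was -0.40 (unadjusted p = 0.0223 and adjusted p = 1.00 in limma's test). Without TG-2, TG-3, WT-1 or WT-2 that unadjusted p-value was 0.0538, 0.071, 0.0674 and 0.0807 in limma's test. The study lists *Cav2* among its changed genes from these libraries, so its direction is not independent. The second was *Cavin1*, a coat protein of caveolae, with 645 ± 66 and 559.9 ± 93.1 normalized counts (unadjusted p = 0.0238 in limma's test with the block and 0.16 without it).

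The list of veins and of activated endothelium held the widest range of log2 fold changes among the vascular lists, from -0.59 to 0.69. The lower end was *Lcn2* and rests on WT-3, where it was 17.1-fold above the other WT libraries. Of 9 listed genes 7 were tested. Without the block 1 of them had an unadjusted p-value under 0.05, with it there were 3, each higher in TG, against 2.01% and 4.98% of all tested genes in either direction, and the median log2 fold change was 0.08. *Vwf* encodes von Willebrand factor, which endothelial cells of larger vessels store and secrete. It had 1043, 983 and 857 normalized counts in TG-1, TG-2 and TG-3 and 532, 376 and 1047 in WT-1, WT-2 and WT-3. The TG libraries were alike and 2 of the 3 WT libraries had much less, but WT-3 was as high as TG-1. The log2 fold change was 0.69 (standard error 0.33, unadjusted p = 0.0686 in limma's test) and 0.0267 was the unadjusted p-value with the block. Leaving out WT-3 gave *Vwf* a log2 fold change of 1.10 (unadjusted p = 0.000211 and adjusted p = 0.702 in limma's test), and leaving out both libraries numbered 3 gave 1.18 (unadjusted p = 8.58e-05 and adjusted p = 0.238 in limma's test). Without WT-2 it was 0.36 (unadjusted p = 0.228 in limma's test). *Ackr1*, a chemokine receptor of venules, had 1170.2, 1149 and 1061 normalized counts in TG and 1048, 958 and 870.1 in WT. TG-3 was just above WT-1, so that the groups did not overlap, and the log2 fold change was 0.24 (unadjusted p = 0.0379 in limma's test). Without TG-1, TG-2, WT-2 or WT-3 its unadjusted p-value was 0.116, 0.099, 0.0749 and 0.118 in limma's test, without both libraries numbered 3 it was 0.0532, and with eBayes without a trend 0.0584. *Ackr1* shares 493 bases with *Cadm3* on the same strand, and *Cadm3*, a gene of neurons, had 15210.3 ± 783 normalized counts in TG and 14153 ± 818 in WT, so that the division of reads between these 2 genes is uncertain.

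Genes of perivascular fibroblasts and the leptomeninges, the membranes on the surface of the cortex through which its larger vessels enter, were a further list. Like the other lists it was chosen with earlier results of these data known, so its direction and counts are not independent of them. All 10 listed genes had log2 fold changes above 0, as did 8119 of the 16714 tested genes, from 0.09 to 0.48 with a median of 0.30, and 5 had an unadjusted p-value under 0.05 (7 with the block), each of them higher in TG, against 2.01% of all tested genes (4.98% with the block) in either direction. The count was 3 without TG-2 (beside 353 of 16693 tested genes), 3 without WT-2 (365 of 16739) and 3 with eBayes without a trend (484 of 16714). The 5 were *Fmod* and *Ogn*, matrix proteoglycans, the growth factor *Igf2*, and the solute carriers *Slc6a13* and *Slc13a4*. *Slc13a4* had 420.4, 544 and 436 normalized counts in TG and 344, 351 and 335 in WT, and its log2 fold change was 0.43 (standard error 0.12, unadjusted p = 0.00712 and adjusted p = 1.00 in limma's test). The summed normalized counts of the 10 genes were 5219 to 6111 in TG and 4469 to 4974 in WT, without overlap. Those of the 10 arterial genes did not overlap either, at 4025 to 4289 in TG and 3759 to 4011 in WT. How often such sums separate over all genes was not computed. The sums of the 10 endothelial genes, given above, overlapped between the genotypes. The part of meningeal tissue in the levels of *Vwf*, *Ackr1* and *Slc22a8* was not tested.

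**Figure D4:**
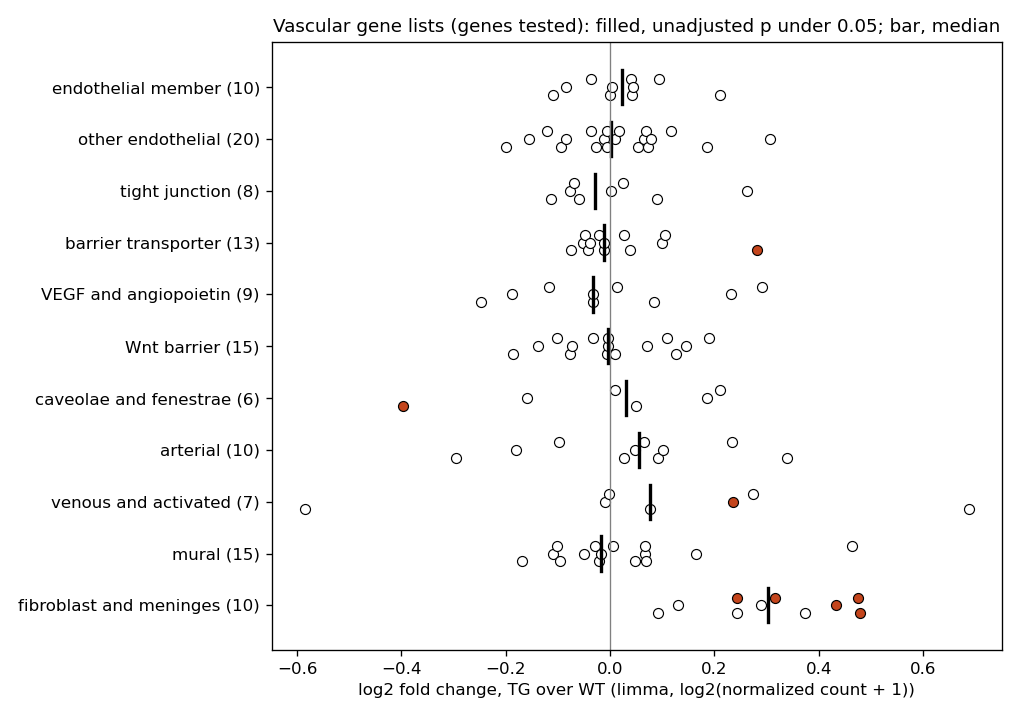
Log2 fold change of TG over WT (horizontal axis) for each tested gene of 11 vascular lists, with the median of a list as a bar and genes with an unadjusted p-value under 0.05 filled. The lists of endothelial, mural and Wnt genes centre near 0, and the 10 genes of fibroblasts and meninges all lie to the right of it, with a median of 0.30.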

How the data were processed

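The deposited file holds one signal per gene and library, the normalized read counts, for 18254 genes in 6 libraries. The authors estimated transcript abundance with Salmon 0.9.1 on GRCm38 with GC bias correction, summed it to genes with tximport and divided it by size factors in DESeq2 1.19.11. The values are not whole reads, so no count model was used and no counting interval is given.

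Symbols, positions and transcript lengths were taken from GENCODE release M21, in which 18215 of the 18254 identifiers were found, and upstream sequences from RefSeq (GRCm38.p6). The 16714 genes that averaged 5 or more normalized counts were log2-transformed after adding a pseudocount of 1 and compared with limma 3.58.1 in R 4.3.3. The model held the genotype alone (lmFit, eBayes with a mean-variance trend), tests were two-sided, and p-values were adjusted over all tested genes by Benjamini-Hochberg with a threshold of 0.05. Fold changes on this scale are understated for low genes.

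Both genotypes carry the numbers 1 to 3. The deviations of same-numbered libraries from their genotype means correlated across genes at 0.30, 0.33 and 0.62, and since each was above 0.1 the numbers were taken to pair the libraries. TG-1 with WT-2 (0.27) and TG-2 with WT-1 (0.23) correlated nearly as well, so the values mainly set number 3 apart from numbers 1 and 2. The model was fitted a second time with that number as a block. Because each library is a pool, p-values measure the spread between pools.

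The 10 genes and all lists were chosen with earlier results of these data known. Besides the 10 genes, the rule named the 2 most abundant members of each endothelial and barrier list, the most abundant member of the other lists, members with an unadjusted p-value under 0.05, close paralogues and *Shank3*. *Robo4*, *Itga2b*, *Ppbp*, *Pf4*, *Rbfox3*, *Gad1*, *Cadm3*, *Lcn2*, *Icam1*, *Nr2f2*, *Vcam1*, *Ephb4* and the *Kdr* to *Flt1* ratio were added after the values had been seen. *Sele* and *Selp* were not analysed here. The alternatives were pseudocounts of 0.1 and 5, other filters and scalings, other eBayes settings, an empirical null, the block, and libraries left out.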

Additional observations from a re-analysis of the deposited data

How the results depend on the processing

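Over the alternatives, 0 of the 10 endothelial genes passed the adjusted threshold of 0.05 in limma. The count of all tested genes past that threshold was 1 with upper quartile scaling, 1 with the robust option, 1 with the replicate number as a block, 1 without both libraries numbered 3, 26 with the empirical null, and between 0 and 1 with each library left out. The block moved 0 endothelial genes past an unadjusted p-value of 0.05 and changed no other call among them. With each library left out the number of endothelial genes under an unadjusted p-value of 0.05 was between 0 and 1, the 1 being *Kdr* without WT-1 (unadjusted p = 0.0167 and adjusted p = 1.00 in limma's test). The median log2 fold change of the 10 genes stayed between -0.03 and 0.08.

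The signs of small changes were not stable. With each library left out the log2 fold change ranged from -0.10 to 0.25 for *Cldn5*, from -0.50 to 0.66 for *Pecam1*, from -0.12 to 0.15 for *Slco1a4*, from -0.042 to 0.061 for *Abcb1a*, from -0.13 to 0.049 for *Slc2a1*, from -0.036 to 0.16 for *Cdh5* and from -0.019 to 0.18 for *Tek*. That of *Abcb1a* was also above 0 with upper quartile scaling (0.0072), with quantile normalization (0.0049) and without both libraries numbered 3 (0.011). *Flt1*, *Ly6c1* and *Kdr* kept their sign under each alternative. Over all alternatives the number of genes with an unadjusted p-value under 0.05 ranged from 3 to 7 in the list of fibroblasts and meninges, from 0 to 3 in the venous and the blood lists, from 0 to 2 in the other endothelial, Wnt, caveolae, mural and choroid plexus lists, and from 0 to 1 in the transporter, VEGF, arterial and neuron lists, and it was 0 throughout for tight junctions, astrocytes and microglia. The median log2 fold change ranged from 0.26 to 0.36 for fibroblasts and meninges, from 0.022 to 1.18 for choroid plexus and from 0.019 to 0.12 for arterial genes, and that of each other list took both signs, within -0.10 and 0.09 except for the venous list (up to 0.21) and the blood list (-0.05 to 0.32). With 3 pools of each genotype and normalized values alone, changes smaller than the intervals given could not be told from 0.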

Other observations

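Blood remaining in the vessels was read from red cell and platelet genes, of which 8 of 9 were tested. All 8 had log2 fold changes above 0 in TG, with a median of 0.15 that was -0.05 without WT-2 and 0.32 without WT-3, and for 1 the unadjusted p-value was below 0.05 (3 with the replicate number as a block), against 2.01% and 4.98% of all tested genes. The count was 0 without TG-1, TG-2, WT-2 or WT-3 and without both libraries numbered 3, and 2 with eBayes without a trend (beside 484 of 16714 tested genes). The gene below 0.05 without the block was *Alas2*, the first enzyme of heme synthesis in red cells, with 122, 109.8 and 104 normalized counts in TG and 91, 85.1 and 84.7 in WT (log2 fold change 0.36, unadjusted p = 0.0354 and adjusted p = 1.00 in limma's test). The summed normalized counts of the 8 genes overlapped between the genotypes, at 6985 to 10748 in TG and 6085 to 9739 in WT, and were highest in library 3 of each genotype, where the endothelial genes other than *Pecam1* tended to be low. The most abundant of the 8, *Hbb-bs*, had 3643 normalized counts in TG-3 and 3367 in WT-3.

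WT-3, in which *Vwf* was as high as in the TG libraries, also had 110.5 normalized counts of *Lcn2*, an acute phase gene of activated endothelium and other cells, against 3.61 to 13.3 in the other 5 libraries. *Lcn2* was named after its values had been seen. Other genes of the venous and activated list went in both directions in WT-3, relative to WT-1 and WT-2. *Icam1* and *Nr2f2* were at 1.54 and 1.23 times their level there, and *Vcam1*, *Ackr1* and *Ephb4* at 0.802, 0.868 and 0.928 times.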
